A study of Macaca radiata with 4 samples.

Results

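Heat shock proteins and their co-chaperones were examined in the corpus luteum of bonnet monkeys (Macaca radiata) given back luteinizing hormone after its withdrawal. The members were genes of the HSP70, HSP90, HSP110, small heat shock, DNAJ, BAG and CCT families for which the annotation gave a probe set with 1 symbol. HSP90 co-chaperones, heat shock factors and folding factors of the endoplasmic reticulum (ER) were members as well. All members were taken by gene symbol, and the choice was made with earlier results of these data known. They numbered 75 genes on 159 probe sets, of 14132 genes with 1 symbol on 24956 probe sets. A gene was represented by its brightest probe set, and 70 of the 75 lay above the filter on dim probe sets, which kept 10998 genes in all. The filter asked for a mean log2(signal + 16) over the 4 arrays over the 40th percentile, which was a signal of 90.7.

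The rhLH group comprised 2 corpora lutea from females that received 150 µg/kg of CET on luteal phase day 7 and, 24 h later, recombinant LH (rhLH) at 20 IU/kg intravenously. The PBS group comprised 2 corpora lutea from females that received the same CET dose and an injection of PBS (0.5 ml) in place of rhLH. Tissue was taken 8 h after the injection in both groups. All animals therefore carried CET, which the labels describe as an inhibitor of endogenous LH secretion, and no animal without CET was among the samples. The arrays were rhLH replicates 3 and 4 and PBS replicates 1 and 2, and each value is a MAS5 signal, the Affymetrix summary of probe brightness on a linear scale. The labels describe 2 animals in each group without tying an array to an animal, so p-values reflect array-to-array spread, some of it possibly technical.

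Chaperones bind unfolded proteins and release them in cycles driven by ATP. HSP70 proteins do this together with J proteins (DNAJA, DNAJB, DNAJC), which hand over substrates and speed ATP hydrolysis, and with BAG and HSP110 proteins, which exchange the nucleotide. HSP90 completes the folding of kinases and steroid receptors, the progesterone receptor among them, with STIP1, AHSA1 and the immunophilins FKBP4 and FKBP5. The CCT ring folds actin and tubulin, and ER chaperones fold secreted and membrane proteins. In rat luteal cells, heat shock is known to block hormone-dependent progesterone production.

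The arrays differed in ways that bear on every value below. PBS replicate 1 correlated with the other 3 arrays at Pearson r of 0.752 to 0.780 across kept probe sets, whereas those 3 correlated with each other at 0.940 to 0.947. These correlations are across probe sets, which are not independent replicates. The ratio of the 3′ to the 5′ control probe set of beta-actin, a sign of RNA integrity, was 1.59 and 1.54 on the rhLH arrays, against 11.2 on PBS replicate 1 and 1.49 on PBS replicate 2. The corresponding ratio for GAPDH was 2.28 and 1.62 on the rhLH arrays, against 3.23 and 1.88 on PBS replicates 1 and 2. That of a further control, EF1A, differed little, at 0.93 and 0.88 on the rhLH arrays, against 1.06 and 0.95 on PBS replicates 1 and 2. Steroidogenic markers identified the tissue as labelled: STAR, which carries cholesterol into mitochondria, gave signals of 52570.3 and 51660 with rhLH, against 24283 and 54566 with PBS. The summed signal of the 10 kept of 14 granulosa-lutein markers was 180376 and 195686 on the rhLH arrays, against 90530 on PBS replicate 1 and 182035 on PBS replicate 2. Of these 10 markers, 5 (against 16.3% of all kept genes) lay above both PBS arrays on both rhLH arrays and 0 (against 16.1%) below. Their median log2 difference, rhLH minus PBS, was 0.70, which was 1.33 relative to PBS replicate 1 and 0.13 relative to PBS replicate 2. CYP19A1, the aromatase that makes estrogen, had 12670 and 20847 with rhLH, against 1884 and 7431 with PBS (4.32-fold). HSD17B1, which forms estradiol, had 273 and 319 with rhLH, against 67.1 and 51.4 with PBS (4.16-fold). The summed signals of fibroblast markers (6 kept of 7) and of macrophage markers (6 kept of 8) were also lowest on PBS replicate 1, at 32885 and 9451, against at least 54979 and 16857 on the other 3 arrays. So were those of endothelial, pericyte and smooth muscle, theca-lutein, and T and NK cell markers, but not that of erythrocyte markers. The macrophage sum is carried by LYZ. MRC1 and CSF1R were lowest on rhLH replicate 4, at 1176 and 513, against 1313 and 584 on PBS replicate 1. Single fibroblast markers differed from their sum, which is carried by DCN, COL1A2 and COL1A1: COL3A1 and LUM were highest on PBS replicate 1, at 788 and 2777, against at most 329 and 1950.05 on the other 3 arrays. In tissue, fewer cells of a type and less RNA per cell cannot be told apart, and the part of cell makeup or RNA integrity in the differences below was not tested. Differences are therefore given pooled and, for the genes described in most detail and for the gene groups, also relative to each PBS array.

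Chaperone genes tended to be brighter on the rhLH arrays than on the PBS arrays, and the differences were small. The median log2 difference, rhLH minus PBS, was 0.28 over the 70 genes and 0.02 over all 10998 kept genes. Of the 70, 48 had a positive difference (68.6%, against 51.4% of all kept genes). On 24 genes (34.3%, against 16.3% of all kept genes) both rhLH arrays lay above both PBS arrays. On 5 genes (7.14%, against 16.1%) both lay below, and on the other 41 the groups overlapped. The median difference among those 24 genes was 0.59, and 2 of them, SDF2L1 and DNAJA4, exceeded 1 on the log2 scale.

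No chaperone gene passed the test across all probe sets. Adjusted p-values of the 70 genes ran from 0.919 to 0.995 (limma with Benjamini-Hochberg adjustment over 31659 probe sets), so 0 were called, and 0.0% of all kept genes were called. An unadjusted limma p under 0.05 was found for 1 of the 70, DNAJA4, which is 1.43% against 1.9% of all kept genes. By a rule asking that each rhLH array differ at least 2-fold from each PBS array, 0 chaperone genes qualified in either direction, against 0.318% of all kept genes on the higher side and 0.336% on the lower side.

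The excess of genes with higher signals was smaller when PBS replicate 1 was left out. Against PBS replicate 1 the median chaperone difference was 0.35, and relative to PBS replicate 2 it was 0.071, with medians over all kept genes of −0.01 and −0.002. With PBS replicate 2 as the sole control, both rhLH arrays lay above it for 32 of the 70 genes (45.7%, against 34.7% of all kept genes) and below it for 12 (17.1%, against 34.1%). With PBS replicate 1 as the sole control, the counts were 46 above (65.7%, against 43.5%) and 20 below (28.6%, against 43.5%). Limma then called 19 of the 70 (27.1%), a share near the 25.9% called among all kept genes. It called 0 of the 70 and 0.0% of all kept genes with PBS replicate 2 as the sole control, where 6 of the 70 (8.57%, against 5.91% of all kept genes) had an unadjusted p under 0.05. Both of these fits assume that the lone PBS array varied like the rhLH arrays. PBS replicate 1 held the lowest of the 4 signals for 37 of the 70 genes (52.9%, against 39.8% of all kept genes) and the highest for 20 (28.6%, against 39.9%).

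**Figure D1:**
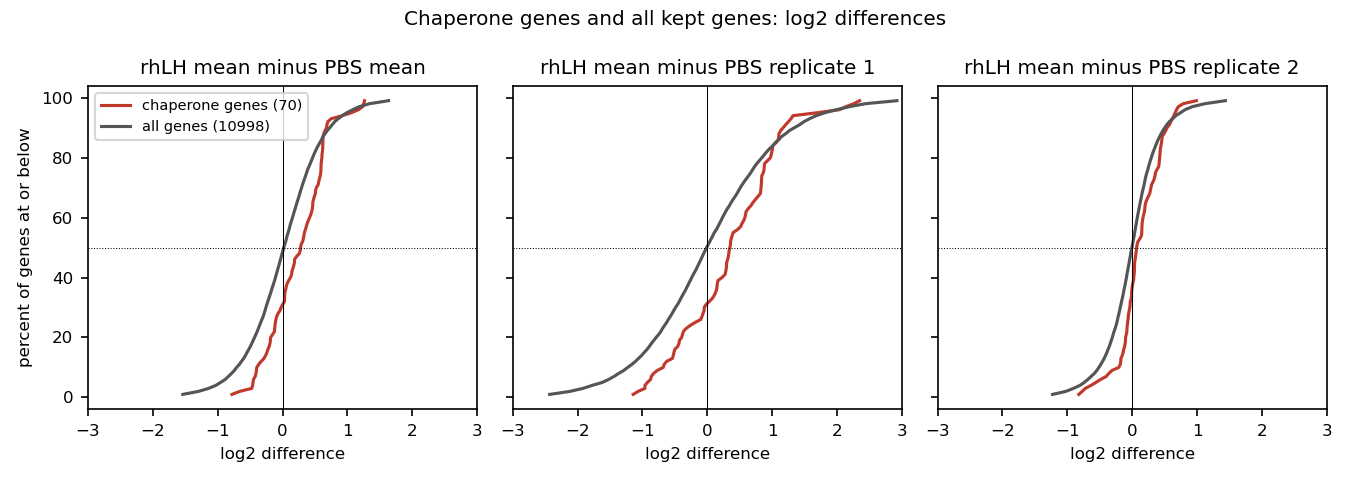
Percent of genes (vertical axis) at or below each log2 difference (horizontal axis), for the 70 chaperone genes and for all 10998 kept genes, drawn from percentiles 1 to 99. The chaperone curve crosses 50 percent at 0.28 for the pooled difference, at 0.35 relative to PBS replicate 1 and at 0.07 relative to PBS replicate 2.

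Chaperone genes are brighter than most genes on the array, and brighter genes as a whole had a slightly positive difference. Among the 7205 genes above the 70th percentile of mean signal over all probe sets the median difference was 0.08, and among the 59 chaperone genes there it was 0.33. Relative to PBS replicate 2 these medians were 0.009 and 0.073. Brightness was not matched by this cut, as the median log2 level was 10.2 for the 7205 and 10.7 for the 59. Groups did not overlap on the higher side for 37.3% of those 59, against 18.8% of the 7205, and on the lower side for 8.47%, against 13.8%. Centring each array on its median raised the median of all kept genes to 0.25 and that of the chaperone genes to 0.51. The counts with no overlap were then 29 higher and 2 lower among the 70 genes (41.4% and 2.86%), against 25.8% and 9.48% of all kept genes. With quantile normalization of the arrays the counts fell to 20 higher and 4 lower (28.6% and 5.71%), against 17.4% and 14.4% of all kept genes.

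Within the HSP70 family, the central ATP-driven chaperones, 0 of 7 kept genes separated the groups, where 16.3% of all kept genes lay above and 16.1% below. The family median of 0.05 was −0.09 relative to PBS replicate 1 and −0.008 relative to PBS replicate 2. HSPA8, the constitutive cytosolic HSP70, gave signals of 9628 and 12963 with rhLH, against 16017 and 10038 with PBS (log2 −0.18, −0.52 relative to PBS replicate 1 and 0.15 relative to PBS replicate 2). The signals of the groups interleaved. HSPA9, the HSP70 of mitochondria, had 7615 and 7986 with rhLH, against 6349 and 7841 with PBS (log2 0.14, 0.30 relative to PBS replicate 1 and −0.008 relative to PBS replicate 2). HSPA4, an HSP110-type exchange factor, had 3134 and 2927 with rhLH, against 2513 and 3342 with PBS (log2 0.06, 0.27 relative to PBS replicate 1 and −0.14 relative to PBS replicate 2). The sign of both genes thus turned without PBS replicate 1. HSPA6, a stress-induced form, had 247 and 169 with rhLH, against 298 and 236 with PBS (log2 −0.35, −0.51 relative to PBS replicate 1 and −0.19 relative to PBS replicate 2). The remaining genes, HSPA12A, HSPA12B and HSPA4L, had pooled differences of −0.02, 0.33 and 0.05, and of 0.50, −0.06 and 0.20 relative to PBS replicate 2. The stress-inducible genes HSPA1A and HSPA1B, HSPA2 and the ER form HSPA5 were not matched to a probe set by the annotation used here and are not analysed here.

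HSPH1, the stress-inducible HSP110 that recharges HSP70 with ATP, gave signals of 4696 and 3244 with rhLH, against 3040.1 and 2185 with PBS. Both rhLH signals lay above both PBS signals, a 1.51-fold difference (log2 0.60, SE 0.36), and the difference was larger relative to PBS replicate 2 (0.83) than relative to PBS replicate 1 (0.36). HSP90AA1, the inducible cytosolic HSP90, had 351 and 426 with rhLH, against 203 and 297 with PBS (log2 0.62, SE 0.45, 0.88 relative to PBS replicate 1 and 0.36 relative to PBS replicate 2). HSP90AB1, the constitutive form, had 16441 and 15662 with rhLH, against 7471 and 15794 with PBS. On this brightest probe set the pooled difference of 0.56 was made up of 1.10 relative to PBS replicate 1 and 0.02 relative to PBS replicate 2. The 4 kept probe sets of HSP90AB1 ran from 0.92 to 3.10 relative to PBS replicate 1 and from −0.34 to 0.51 relative to PBS replicate 2. Of these 4, 1 lay above both PBS arrays, with 10903 and 13458 with rhLH, against 6416 and 8501 with PBS. HSP90B1, the ER form, had 2797 and 2858 with rhLH, against 2924 and 2112 with PBS (log2 0.18, −0.05 relative to PBS replicate 1 and 0.42 relative to PBS replicate 2).

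Of the 4 HSP90 co-chaperones, 3 (75.0%, against 16.3% of all kept genes) lay above both PBS arrays on both rhLH arrays. Their median of 0.61 was 0.90 relative to PBS replicate 1 and 0.36 relative to PBS replicate 2. STIP1, the adaptor that joins HSP70 to HSP90, had 3969 and 3543 with rhLH, against 2097 and 2749 with PBS (1.56-fold, log2 0.64, SE 0.32). AHSA1, which stimulates the ATPase of HSP90, had 3349.8 and 2813 with rhLH, against 1558 and 2536 with PBS (1.54-fold, log2 0.62, SE 0.37). FKBP4, an immunophilin of steroid receptor complexes, had 1792 and 1430.4 with rhLH, against 1247 and 1042 with PBS (1.4-fold, log2 0.48, SE 0.33). The differences of these 3 genes were 0.83, 0.97 and 0.36 relative to PBS replicate 1, and 0.45, 0.27 and 0.61 relative to PBS replicate 2. FKBP5, an immunophilin whose gene is a known target of steroid receptors, had 829.8 and 859.8 with rhLH, against 198 and 1475 with PBS. Its rhLH signals lay between the 2 PBS signals, so the pooled 0.61 joined 2.01 relative to PBS replicate 1 with −0.79 relative to PBS replicate 2.

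Among the J proteins of classes A and B, 4 of 11 kept genes (36.4%, against 16.3% of all kept genes) exceeded both PBS arrays and 1 (9.09%, against 16.1%) lay below. Their median of 0.38 was 0.38 relative to PBS replicate 1 and 0.068 relative to PBS replicate 2. DNAJA4 had 2199 and 1205 with rhLH, against 717 and 631 with PBS, a 2.39-fold difference (1702 ± 703 against 674 ± 61.2, SD, n = 2 each; log2 1.26, SE 0.41). Both rhLH signals lay above both PBS signals, and the rhLH mean differed by 1.17 from PBS replicate 1 and by 1.35 from PBS replicate 2. In mouse cells, Dnaja4 is known as a target of the sterol-responsive factor SREBP. DNAJA1, the main cytosolic J protein partner of HSPA8, had 5199 and 3398 with rhLH, against 2899 and 2674 with PBS (log2 0.59, SE 0.35, made up of 0.53 and 0.65). DNAJB11, an ER J protein, had 4239.97 and 3291 with rhLH, against 1847 and 2809 with PBS (log2 0.71, SE 0.36, 1.01 relative to PBS replicate 1 and 0.41 relative to PBS replicate 2). The mitochondrial J protein DNAJA3 was the other gene above, with a pooled difference of 0.38.

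DNAJB1, the classical heat-inducible HSP40, had 4435 and 3663 with rhLH, against 2194 and 3931 with PBS. The groups overlapped, with a pooled difference of 0.45 that was 0.87 relative to PBS replicate 1 and 0.04 relative to PBS replicate 2. DNAJA2 was the gene below both PBS arrays, at −0.25. The brightest probe sets of DNAJB5 and DNAJB6 had pooled differences of −0.46 and −0.23 that turned to 0.05 and 0.21 relative to PBS replicate 2.

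The DNAJC proteins are J proteins of varied location, and 6 of 17 kept genes (35.3%, against 16.3% of all kept genes) exceeded both PBS arrays and 2 (11.8%, against 16.1%) lay below. Their median of 0.17 was 0.33 relative to PBS replicate 1 and 0.039 relative to PBS replicate 2. DNAJC1, an ER membrane J protein, had 4891 and 4513 with rhLH, against 2619 and 3238 with PBS (1.61-fold, log2 0.69, SE 0.31). DNAJC17, a nuclear J protein linked to splicing, had 483 and 588 with rhLH, against 203 and 349.7 with PBS (1.94-fold, log2 0.96, SE 0.45). The differences of these 2 genes were 0.84 and 1.33 relative to PBS replicate 1, and 0.53 and 0.59 relative to PBS replicate 2. DNAJC28 and DNAJC8 lay above with pooled differences of 0.62 and 0.47, while those of DNAJC16 and DNAJC10, also above, were only 0.10 and 0.03. DNAJC21, which takes part in ribosome assembly, had 1059.7 and 1108 with rhLH, against 2456 and 1412 with PBS (log2 −0.77, −0.38 relative to PBS replicate 2). DNAJC9, a histone chaperone, lay below with a pooled difference of −0.20.

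**Figure D2:**
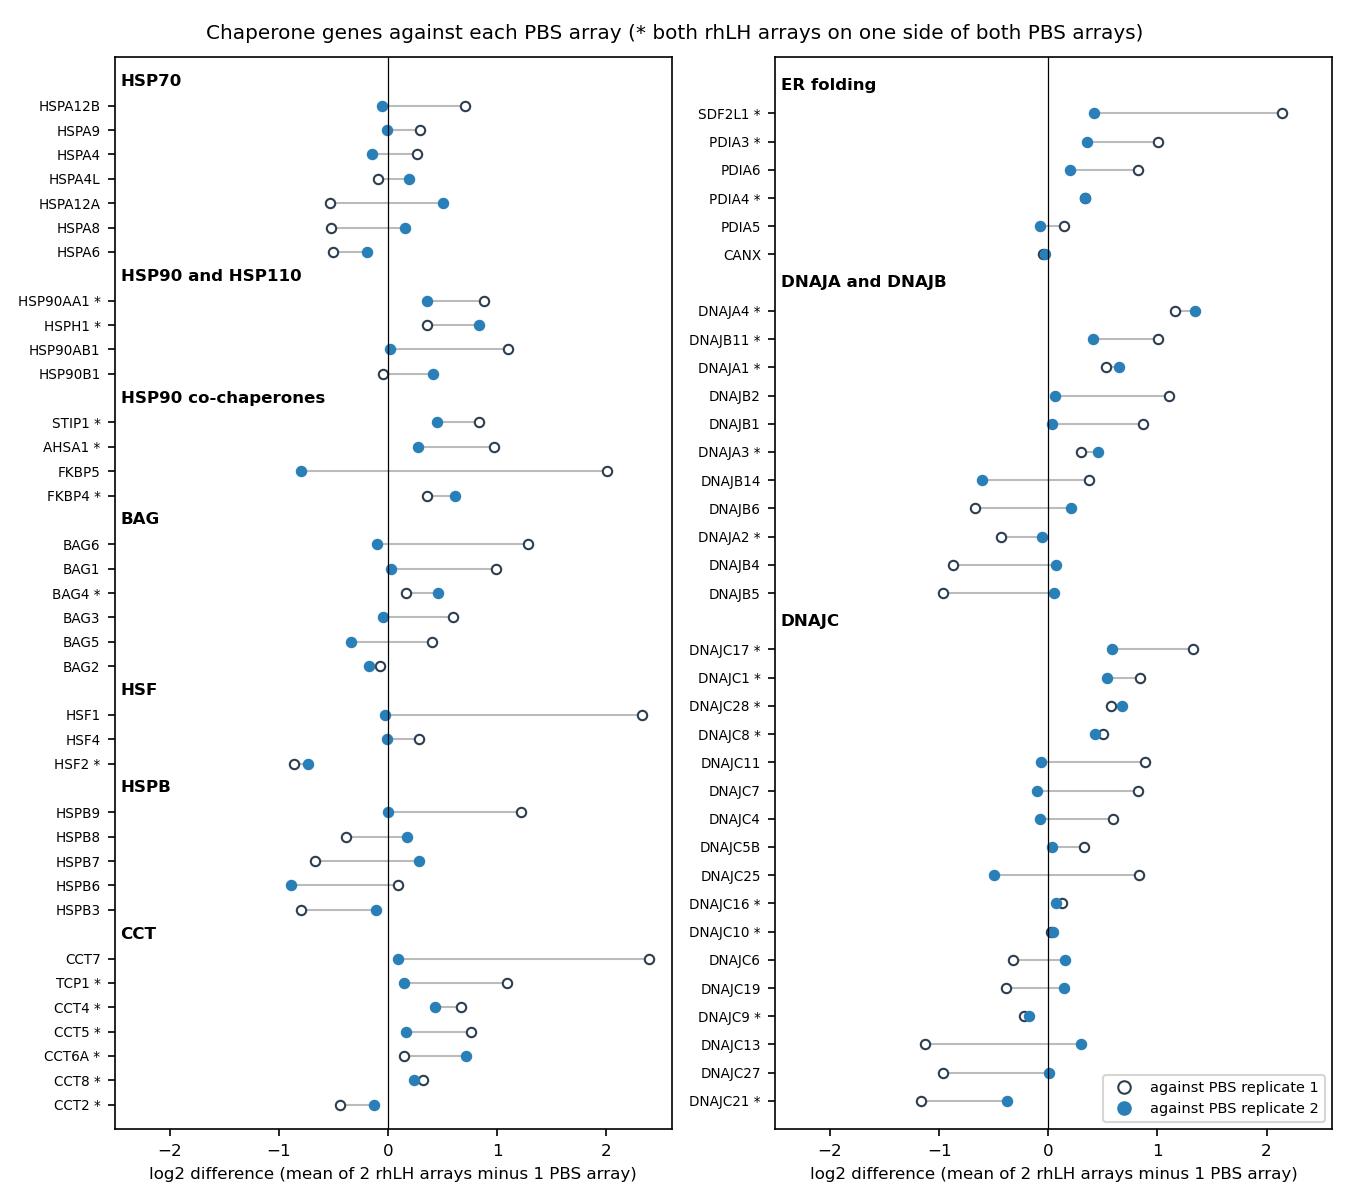
Log2 difference of the mean of the 2 rhLH arrays from PBS replicate 1 (open circles) and from PBS replicate 2 (filled circles) for the 70 chaperone genes, by family; a star marks the 29 genes whose groups did not overlap. HSPH1, STIP1, FKBP4, DNAJA4 and DNAJA1 lie to the right of 0 on both circles, HSF2 to the left, and HSF1, CCT7 and HSP90AB1 only on the open circle by more than 0.1.

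The CCT chaperonin had 7 kept genes, of which 5 (71.4%, against 16.3% of all kept genes) lay above both PBS arrays and 1 (14.3%, against 16.1%) below. The family median of 0.46 was 0.67 relative to PBS replicate 1 and 0.16 relative to PBS replicate 2. CCT4 had 11139.5 and 8994 with rhLH, against 6301 and 7412 with PBS (1.46-fold, log2 0.55, SE 0.33, 0.67 relative to PBS replicate 1 and 0.43 relative to PBS replicate 2). TCP1, the alpha subunit, had 5964 and 6321 with rhLH, against 2879 and 5534 with PBS (log2 0.62, SE 0.41, but 0.15 relative to PBS replicate 2). CCT5, CCT6A and CCT8 lay above with pooled differences of 0.46, 0.43 and 0.28, which were 0.16, 0.72 and 0.24 relative to PBS replicate 2. CCT7 had the largest pooled difference of the ring, 1.24, with signals of 7365 and 5633 with rhLH, against 1214 and 6038 with PBS. Its rhLH signals straddled that of PBS replicate 2, and the difference against that array was 0.09. CCT2 lay below on its brightest probe set, with 8326 and 8801 with rhLH, against 11602 and 9371 with PBS (log2 −0.28). Of its 10 kept probe sets, however, 7 had a positive pooled difference, 2 lay above both PBS arrays and only 1 lay below. CCT8L2, which the symbol rule also took in, was not kept by the filter.

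Of the ER folding factors, 3 of 6 kept genes (against 16.3% of all kept genes) exceeded both PBS arrays and 0 (against 16.1%) lay below. Their median of 0.42 was 0.58 relative to PBS replicate 1 and 0.27 relative to PBS replicate 2. SDF2L1, an ER protein known to be induced by ER stress, had 1732 and 1102 with rhLH, against 300.0 and 1027 with PBS (2.44-fold, log2 1.28, SE 0.63). Most of this difference came from PBS replicate 1, as it was 2.15 against that array and 0.42 relative to PBS replicate 2. PDIA3, a disulfide isomerase for glycoproteins, had 10752 and 11017 with rhLH, against 5426 and 8513 with PBS (1.6-fold, log2 0.68, SE 0.37, 1.00 relative to PBS replicate 1 and 0.35 relative to PBS replicate 2). PDIA4, another disulfide isomerase, had 2986 and 2539.8 with rhLH, against 2176 and 2178 with PBS (log2 0.34 against either array). CANX, the membrane lectin calnexin, had 11124 and 15349.6 with rhLH, against 13518 and 13346 with PBS (log2 −0.04). Taking all 10 kept chaperones located in the ER from any family, 6 (60.0%, against 16.3% of all kept genes) lay above both PBS arrays and 0 (against 16.1%) below, with a median of 0.42, which was 0.58 relative to PBS replicate 1 and 0.35 relative to PBS replicate 2. HYOU1, CALR, DNAJB9 and DNAJC3 were not matched and are not analysed here.

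The heat shock factors, which switch on heat shock genes, differed in direction. HSF2 had 414 and 534 with rhLH, against 868 and 791 with PBS (474 ± 85.0 against 829.8 ± 54.1, SD, n = 2 each; log2 −0.80, SE 0.36). Both rhLH signals lay below both PBS signals, and HSF2 was the lowest of the 70 genes by pooled difference. The rhLH mean differed by −0.86 from PBS replicate 1 and by −0.73 from PBS replicate 2. HSF1, the main stress-activated factor, had 828 and 596 with rhLH, against 127 and 718 with PBS, so that its pooled 1.15 was 2.33 relative to PBS replicate 1 and −0.03 relative to PBS replicate 2. HSF4 overlapped at 0.14, and at −0.008 relative to PBS replicate 2. Of the 3 factors, 0 lay above both PBS arrays (against 16.3% of all kept genes) and 1 below (33.3%, against 16.1%).

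Of 6 BAG genes, 1 lay above both PBS arrays (16.7%, near the 16.3% of all kept genes) and 0 below (against 16.1%). It was BAG4, with a difference of 0.31. The BAG median of 0.30 was 0.50 relative to PBS replicate 1 and −0.072 relative to PBS replicate 2. BAG1, an exchange factor for HSP70, had 1253 and 1570.3 with rhLH, against 699.9 and 1375 with PBS, and BAG6, which targets misplaced membrane proteins, had 2016 and 2458 with rhLH, against 904 and 2386 with PBS. BAG3, the stress-induced partner of HSPB8 in autophagy, had 2566 and 2022 with rhLH, against 1498 and 2350.5 with PBS. Against PBS replicate 2 the differences of these 3 genes were 0.03, −0.10 and −0.04. Of 5 kept small heat shock genes, 0 separated the groups, where 16.3% of all kept genes lay above and 16.1% below. Their median of −0.19 was −0.38 relative to PBS replicate 1 and −0.003 relative to PBS replicate 2. HSPB8 had 3182 and 3079 with rhLH, against 4079 and 2768 with PBS (log2 −0.10, but 0.18 relative to PBS replicate 2). HSPB3 differed by −0.45 and HSPB9 by 0.61, and relative to PBS replicate 2 by −0.11 and −0.003. HSPB9 had a signal of 65.4 on PBS replicate 1, below the filter level of 90.7. HSPB1, HSPD1 and HSPE1 were not matched and are not analysed here.

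**Figure D3:**
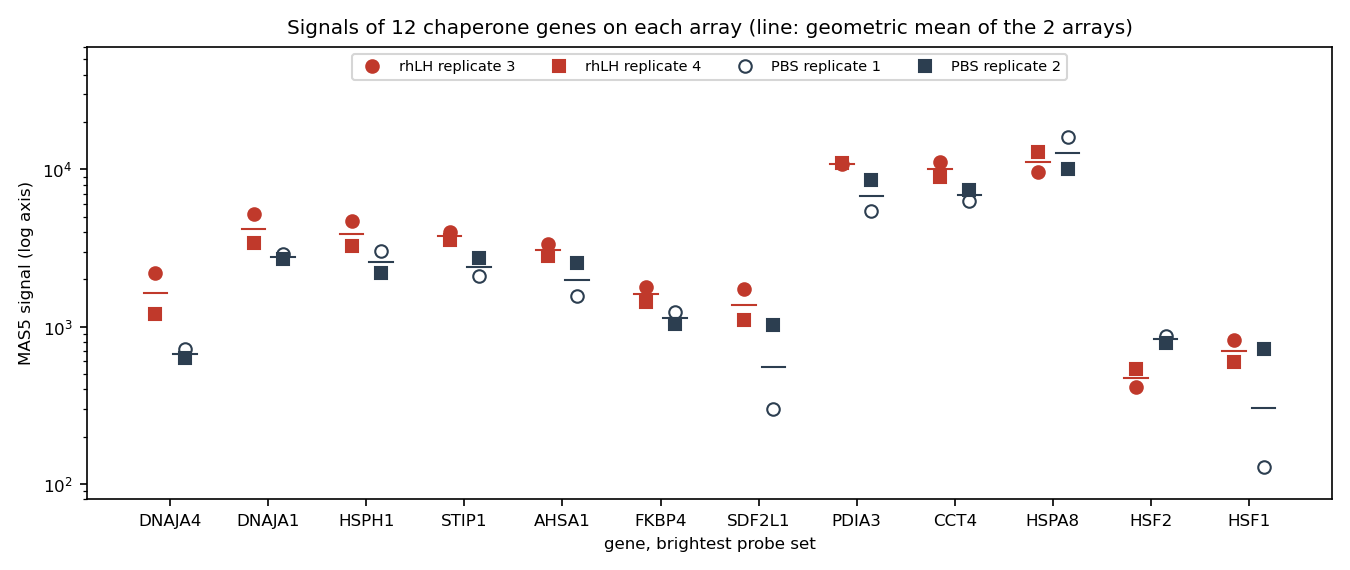
MAS5 signals of 12 chaperone genes on each array (logarithmic axis), rhLH in red and PBS in dark blue, with a line at the geometric mean of each group. Both rhLH arrays lie above both PBS arrays for the first 9 genes and below for HSF2, whereas HSPA8 overlaps and PBS replicate 1 stands alone at 127 for HSF1.

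Several chaperone genes were measured by more than 1 probe set, which gave a second reading of the same transcript. Of 84 further probe sets, 68 passed the filter, on 34 genes, and 42 of these had the same sign as the brightest probe set. The probe sets of a gene share the RNA of each array and some overlap in sequence, so they are not replicates. HSPH1 had 4 kept probe sets and all 4 lay above both PBS arrays, from 0.60 to 1.11 pooled and from 0.70 to 1.04 relative to PBS replicate 2. DNAJA1 had 3, all above. On one of them the signals were 3951 and 3963 with rhLH, against 1133 and 1203 with PBS, a 3.36-fold difference (log2 1.75, SE 0.30, unadjusted p = 0.00116, adjusted p = 0.919 by limma). That probe set had the smallest p of the kept chaperone probe sets, and its difference was 1.79 relative to PBS replicate 1 and 1.70 relative to PBS replicate 2. DNAJA4 also had 3 kept probe sets with positive differences. One gave signals of 439 and 224 with rhLH, against 22.7 and 68.7 with PBS (log2 2.53), both PBS signals being below 90.7. On the other, PBS replicate 1 (376) lay between the rhLH signals of 472 and 279, and PBS replicate 2 had 90.5.

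Other genes gave a less uniform picture. FKBP4 lay above both PBS arrays on 2 of 3 kept probe sets, and relative to PBS replicate 2 all 3 were positive (0.23 to 0.94). Both kept probe sets of DNAJC21 lay below both PBS arrays, the second at −1.56 with signals of 410.04 and 642 with rhLH, against 1860 and 1290.5 with PBS. Both kept probe sets of HSPB6, a small heat shock protein of muscle, had negative differences, the second with no overlap (−1.29). HSPA4 lay above both PBS arrays on 4 of 6 kept probe sets, from 0.74 to 0.97, while its brightest stood at 0.06. The further probe sets of PDIA4 and PDIA6 were all positive, with 3 of 4 and 2 of 3 kept probe sets above both PBS arrays.

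Probe sets of a gene disagreed mainly on PBS replicate 1. Over the 34 genes with at least 2 kept probe sets, the median range between probe sets of a gene was 1.43 on the log2 scale relative to PBS replicate 1 and 0.43 relative to PBS replicate 2. Over all 4433 such genes on the array these medians were 1.12 and 0.41. CCT2 was the clearest case, as its 10 kept probe sets spread from −2.00 to 2.31 relative to PBS replicate 1 but only from −0.26 to 0.30 relative to PBS replicate 2. The 3 kept probe sets of HSPA8 ran from −0.52 to 3.71 relative to PBS replicate 1 and from 0.07 to 0.75 relative to PBS replicate 2, and those of HSPA9 from −2.03 to 0.46 and from −0.40 to 0.004. Opposite pooled signs, with a size over 0.5 on either side, also occurred for DNAJB5 (−0.46 and 1.59), DNAJB6 (−0.23 and 0.81), DNAJC9 (−0.20 and 0.76), DNAJC16 (0.10 and −0.97) and DNAJB11 (0.71 and −0.07). PBS replicate 1 is the array with the beta-actin ratio of 11.2 and the EF1A ratio of 1.06, and the part of RNA integrity in this spread was not tested.

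**Figure D4:**
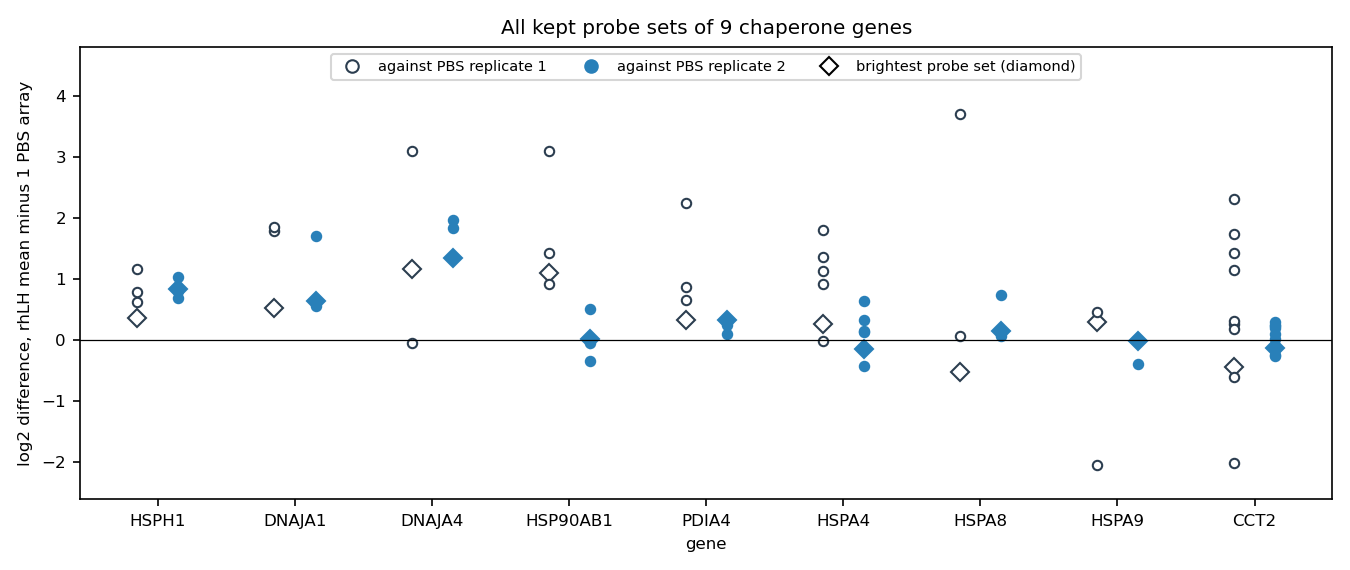
Log2 difference of the rhLH mean from PBS replicate 1 (open) and from PBS replicate 2 (filled) for every kept probe set of 9 chaperone genes, with the brightest as a diamond. Probe sets of CCT2 span −2.00 to 2.31 on the open symbols and −0.26 to 0.30 on the filled ones, while all 4 of HSPH1 and all 3 of DNAJA1 lie above 0 on both.

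Other proteostasis genes were read from lists compiled beside the members. Of 24 kept genes for further chaperones, co-chaperones and proteases, 11 (45.8%, against 16.3% of all kept genes) lay above both PBS arrays and 1 (4.17%, against 16.1%) below, with a median of 0.45. That median was 0.81 relative to PBS replicate 1 and 0.07 relative to PBS replicate 2. ST13, an HSP70-interacting co-chaperone, had 1326 and 1285 with rhLH, against 670.5 and 963 with PBS (log2 0.69, SE 0.35), and PFDN5, a subunit of prefoldin that feeds the CCT ring, had 6883 and 7602 with rhLH, against 3207 and 5694 with PBS (log2 0.76, SE 0.39). PPIB, an ER cyclophilin, had 23421 and 23012 with rhLH, against 5933 and 22311 with PBS, so its pooled 1.01 was 0.06 relative to PBS replicate 2. CRYAB, the small heat shock protein alpha-B crystallin, was the gene below, at −0.44.

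The 21 kept genes of the unfolded protein response outside the member list had a median of 0.04, which was 0.07 relative to PBS replicate 1 and 0.22 relative to PBS replicate 2. Of these, 3 (14.3%, near the 16.3% of all kept genes) lay above both PBS arrays and 1 (4.76%, against 16.1%) below. Relative to PBS replicate 2 alone, 12 of the 21 lay above and 4 below, where 34.7% of all kept genes lay above and 34.1% below. HERPUD1, a component of ER-associated degradation, had 5181 and 4853 with rhLH, against 6662 and 9238 with PBS (log2 −0.64, SE 0.34, −0.41 relative to PBS replicate 1 and −0.88 relative to PBS replicate 2). SEC61A1, the channel of the ER translocon, had 3692 and 3127 with rhLH, against 964 and 2915 with PBS (log2 1.01, but 0.22 relative to PBS replicate 2). MANF, a secreted ER stress protein, had 9117 and 6671 with rhLH, against 4626 and 5909.7 with PBS (log2 0.58, SE 0.35). XBP1, ATF4 and DDIT3, transcription factors of this response, overlapped between groups at 0.02, 0.72 and 0.48, and relative to PBS replicate 2 at 0.13, 0.07 and −0.06. No gene of either list was called by limma, all having an adjusted p of at least 0.919.

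The 2 rhLH arrays also differed from each other for some inducible members. Over the 70 genes the median difference of rhLH replicate 3 from rhLH replicate 4 was 0.04, and replicate 3 was the brighter for 36 (51.4%, against 51.0% of all kept genes). DNAJA4, DNAJA1 and HSPH1 were brighter on replicate 3, and without it their pooled differences were 0.83, 0.29 and 0.33. Without rhLH replicate 4 they were 1.69, 0.90 and 0.86. On these brightest probe sets the size of the 3 differences thus depended on which rhLH array was used, and the sign did not. On the DNAJA1 probe set with the smallest p, the difference was 1.7495 without rhLH replicate 3 and 1.7452 without rhLH replicate 4.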

How the data were processed

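RNA from 4 corpora lutea was measured on Affymetrix rhesus macaque arrays. The deposited values are probe set intensities on a linear scale, made with MAS5 per the submitters' processing notes. The scaling target and any detection calls were not given in the sources used here. The 2% trimmed mean was 500.0 on every array, so no further normalization was applied. The spread of signals still differed on PBS replicate 1. Its median signal was 186, against 136 to 140 on the other arrays, and its 99th percentile was 8886, against 12091 to 12459. The part of this in the differences of bright genes was not tested.

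Signals were taken as log2(signal + 16), 99 control probe sets were set aside, and probe sets above the 40th percentile of mean log2 were kept (31659 of 52766). Symbols came from a platform annotation table, in which 24956 probe sets had 1 symbol, 361 several and 27449 none. No genome or sequence table was used. The probes follow rhesus sequence, and their match to bonnet monkey transcripts was not examined. Probe sets ending in s_at or x_at (the brightest of 6 kept genes) can detect related transcripts.

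Groups came from sample titles. Limma 3.58.1 in R 4.3.3 (lmFit, eBayes with a trend, two-sided) was fitted over all kept probe sets with Benjamini-Hochberg adjustment at 0.05, and was tested on simulated data. Fold differences are on the log2(signal + 16) scale. Precision is limited by the number of arrays, 2 in each group. The smallest p of an exact permutation test on 2 against 2 would be above any usual threshold.

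The members and lists were chosen with earlier results of these data known. Named genes were the 2 with the smallest p in each of 11 families, a panel of 34 genes where measured (11 were not matched), genes past the 2-fold rule, genes with a further kept probe set of opposite sign and a size over 0.5 on either side, and the 3 with the smallest p in each of the 2 non-member lists. Any other gene in the text was picked after its values had been seen. Alternatives covered normalization, pseudocount, filter, variance prior, array weights, probe set choice and leaving out each array.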

Additional observations from a re-analysis of the deposited data

How the results depend on the processing

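No chaperone gene was called by limma under any alternative that kept all 4 arrays: quantile normalization, median centring, pseudocounts of 1 and 64, no filter, a filter at the 70th percentile, no trend, a robust prior, array weights, or the mean over a gene's probe sets. Leaving out 1 array at a time gave 0 to 19 called genes, the 19 without PBS replicate 2. The median chaperone difference ran from 0.071 (without PBS replicate 1) to 0.35 (without PBS replicate 2), and it was 0.51 with arrays centred on their medians, where the median of all genes was 0.25. When 1 array was left out, the count of genes above with no overlap ran from 31 to 46, since fewer arrays overlap less. The 31 came without rhLH replicate 3 (44.3%, against 25.4% of all kept genes) and the 46 without PBS replicate 2 (65.7%, against 43.5%). The count below was 12 (17.1%, against 34.1%) and 20 (28.6%, against 43.5%) without PBS replicates 1 and 2. Without rhLH replicates 3 and 4 it was 10 (14.3%, against 26.4%) and 11 (15.7%, against 27.8%). With median centring the count below was 2 (2.86%, against 9.48%). The 2-fold rule gave 0 to 10 genes higher and 0 to 1 lower when 1 array was left out. The 10 (14.3%, against 13.0% of all kept genes) and the 1 (1.43%, against 10.2%) came without PBS replicate 2. Without rhLH replicate 4, DNAJA4 alone was higher (1.43%, against 1.3%). Of 425 recomputed differences of named genes, 402 moved by less than 1 SD of the arrays within groups and 23 by at least that. Leaving out 1 array of a group of 2 cannot move a difference past that SD, so those comparisons cannot show stability. Without PBS replicate 1, for example, the sign turned for HSF1 (1.15 to −0.03) and FKBP5 (0.61 to −0.79). No paired analysis was possible because the groups share no replicate number. Without detection calls, genes near a signal of 90.7 cannot be told from background.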
